A study of Mus musculus with 8 samples.

Results

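The genes described here encode the secreted ligands, matrix binding proteins, receptors and one intracellular inhibitor of transforming growth factor beta (TGF-β) and activin signalling. They were chosen by name, as the rows of the count table whose Entrez identifiers belong to 10 symbols: the ligand genes Tgfb1, Tgfb2, Tgfb3 and Inhba, the latent TGF-β binding protein genes Ltbp1 and Ltbp2, the receptor genes Tgfbr1, Tgfbr2 and Tgfbr3, and the inhibitor gene Smad7. They were 10 of the 27179 genes in the table. RNA-seq had been carried out on untreated cultures of 67NR, 66cl4, 4T1 and 4T1.2, which are 4 isogenic tumour lines of the mouse mammary gland, and each was represented by 2 biological replicates. In the study, 4T1 and 4T1.2 stood for the strongly metastatic end of this family, 4T1.2 with bone as a site, and 66cl4 and 67NR for the weakly metastatic end. Each line is a single established line grown in culture, so a difference between lines is a difference between these cultures and not between tumour classes. The labels write 66cl4 with a digit in place of the letter l, and the spelling of the design text was used.

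TGF-β ligands are made as precursors whose propeptide stays bound to the mature dimer, and this latent complex is anchored to the extracellular matrix by latent TGF-β binding proteins until it is activated. The free ligand binds the type II receptor TGFBR2, which then phosphorylates the type I receptor TGFBR1. TGFBR3, or betaglycan, is a co-receptor that presents ligand, TGF-β2 above all, to TGFBR2, and it also binds inhibin. Activin A, a dimer of the Inhba product, signals through its own receptors. Both routes lead to the transcription factors SMAD2 and SMAD3, and SMAD7 is induced by the pathway and blocks the activated type I receptor. In mammary tumour cells TGF-β is known both for slowing growth and for promoting loss of epithelial features and invasion.

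In the 3 ligand genes Tgfb1, Tgfb2 and Inhba, the 4 libraries of 4T1.2 and 4T1 did not overlap with the 4 libraries of 66cl4 and 67NR, and their promoters are shown for that reason. The sequences are from RefSeq (GRCm38.p6) and cover the 250 bases before a listed transcription start, 5′ to 3′ on the strand of the gene. Capitals mark the motifs found, the GC box GGGCGG (or its complement) and TATAAA.
Tgfb1, chr7:25686752-25687001, plus strand: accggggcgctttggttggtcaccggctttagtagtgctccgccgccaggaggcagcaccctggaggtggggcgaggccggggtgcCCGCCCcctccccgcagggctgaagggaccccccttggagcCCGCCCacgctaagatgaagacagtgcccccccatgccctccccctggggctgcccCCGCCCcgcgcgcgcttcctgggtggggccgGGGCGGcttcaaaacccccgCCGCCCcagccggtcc
Tgfb2, chr1:186705990-186706239, minus strand: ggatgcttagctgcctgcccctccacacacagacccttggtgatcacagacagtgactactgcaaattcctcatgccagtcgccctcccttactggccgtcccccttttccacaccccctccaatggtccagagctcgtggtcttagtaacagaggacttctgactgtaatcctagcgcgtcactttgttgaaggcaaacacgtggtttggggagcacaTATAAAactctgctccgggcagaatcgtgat
Inhba, chr13:16011601-16011850, plus strand: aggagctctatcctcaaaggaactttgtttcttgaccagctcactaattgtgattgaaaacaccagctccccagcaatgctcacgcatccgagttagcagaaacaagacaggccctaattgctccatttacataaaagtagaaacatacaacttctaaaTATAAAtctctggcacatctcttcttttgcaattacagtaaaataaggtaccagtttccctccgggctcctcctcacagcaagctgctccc

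The windows differed in composition. The Tgfb1 window was 75.2% G and C and held 5 GC boxes and no TATAAA, the Tgfb2 window was 53.6% G and C with 1 TATAAA and no GC box, and the Inhba window was 43.2% G and C, also with 1 TATAAA and no GC box. The median over all 32851 RefSeq promoter windows of that length was 52.4%. A GC box was found in 32.7% of all windows and TATAAA in 12.4%, on either strand. TGANTCA (the AP-1 site, in 6.75% of all windows), AGCCAGACA (the CAGA box, 0.301%) and GTCTAGAC (the palindromic Smad-binding element, 0.167%) were searched on both strands as well, and these letters were not in the 3 windows printed. No match overlapped another motif. The listed starts of Tgfb2 and Inhba lie inside the annotated gene spans, and 2.14% of the exon bases of Tgfb2 overlap exons of the antisense gene Gm29491. RefSeq windows were matched for 7 of the 10 genes. Those for Tgfb3, Tgfbr3 and Smad7 were not among them.

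All 10 genes passed the filter on low counts and were tested, among 13922 genes in all. The libraries held between 37159840 and 66269681 counts, and log2 CPM values of replicates correlated at 0.995 to 0.996 across genes. CPM (counts per 1000000 of the TMM-scaled library size) is used for comparing one gene between lines, and RPKM, which also divides by the gene's counted length, for comparing genes. Each line had 2 libraries, so both values are given in place of a mean. Over the 10 genes and 4 lines, the higher replicate was a median of 1.10 times the lower, and 1.41 times at most, for Inhba in 67NR. Replicate counts differed by more than sampling noise in every line (chi-square per degree of freedom 10 to 73.3 across genes). In RNA of a whole culture, fewer cells making a transcript and less transcript per cell cannot be told apart.

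In all 4 lines the transcripts of the 10 genes were present, but the lines differed in how much of the ligands, the co-receptor and the inhibitor they carried. The pair 4T1.2 and 4T1 carried more Tgfb1 and much more Tgfb2, and less Tgfbr3 and Inhba, than the pair 66cl4 and 67NR. The line 66cl4 stood apart with the highest Ltbp2 and Smad7, 4T1.2 with the highest Tgfbr1, and 67NR with the lowest Tgfb2, Tgfb3 and Ltbp2. Tgfb3 was also highest in 66cl4, but only 1.24-fold above 4T1.2. The tests are F-tests of edgeR's quasi-likelihood method, with p-values adjusted after Benjamini and Hochberg over the genes tested and a threshold of 0.05. Each of the 10 genes differed somewhere among the 4 lines, as did 84.8% of all genes tested. The pairs were then set against each other, each as the average of its lines. The spread in this pooled test is that between replicates of a line, not between lines. By this pooled test 4T1.2 and 4T1 had higher levels of 4 of the 10 genes, against 38.1% of all genes, and lower levels of 5, against 38.6%. A difference of more than 2-fold passed the test in 5 genes, against 31.9% of all genes. The libraries of the line pairs did not overlap in 2 genes that were higher, Tgfb1 and Tgfb2 (27.8% of all genes), and in 2 that were lower, Inhba and Tgfbr3 (27.7%). These counts are not a result about the group, since genes in general passed at similar rates. The median log2 fold change was -0.12 over the 10 genes and -0.01 over all genes.

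**Figure D1:**
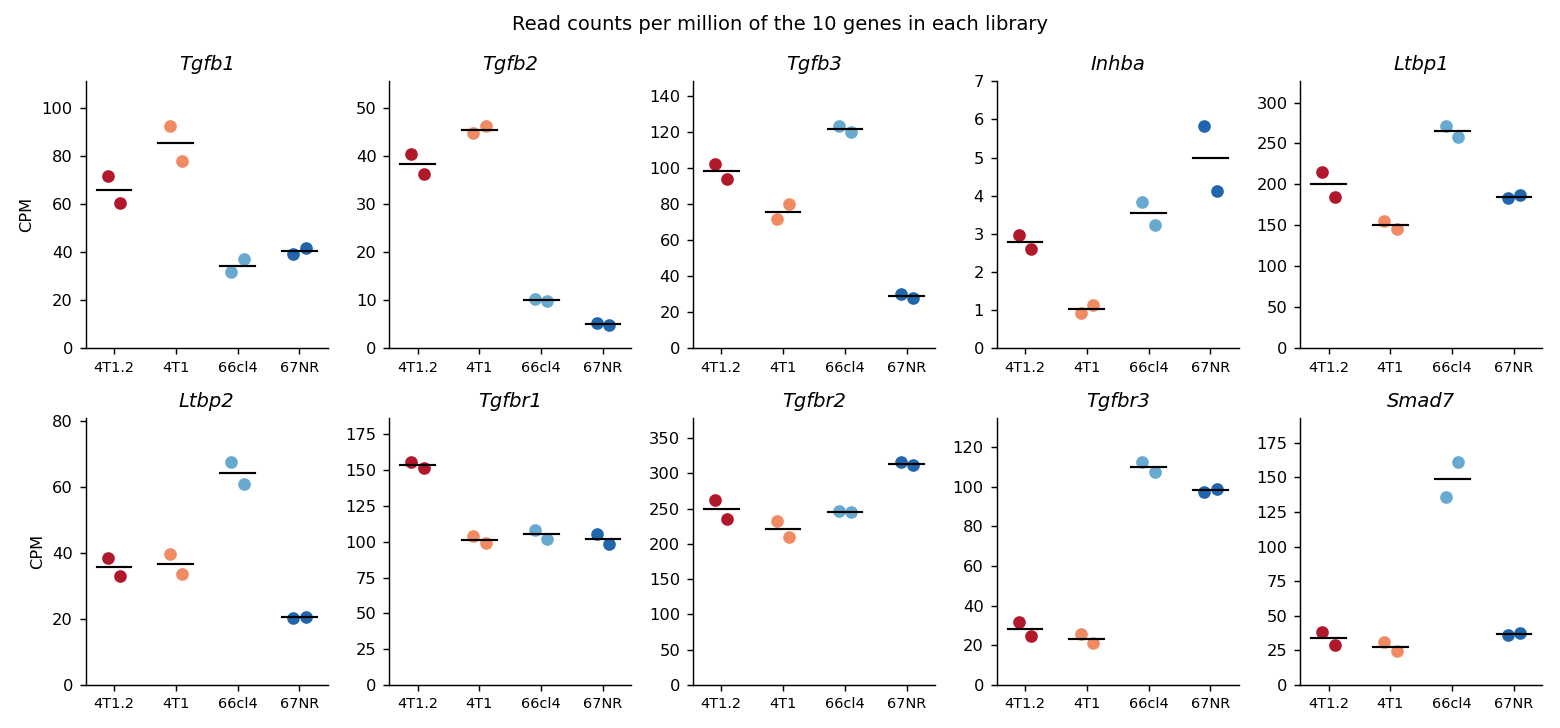
Scaled read counts (CPM, vertical axis, from 0, a scale of its own for each gene) of the 10 genes in each library of 4T1.2, 4T1, 66cl4 and 67NR. Points are libraries (n = 2 per line) and the bar is their mean. Tgfb2 lies between 36.3 and 46.3 CPM across 4T1.2 and 4T1 and at or under 10.3 CPM in the other lines, and Smad7 reaches 136 CPM or more in 66cl4 alone.

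Epithelial character differed between the same line pairs. Of 9 epithelial marker genes, 7 exceeded 3 counts in both libraries of each line of the pair 4T1.2 and 4T1, but 3 did so in each line of the other pair. Their summed level ran from 1510 to 2992 CPM over the 4T1.2 and 4T1 libraries and from 465 to 720.0 CPM over the others, where it was mostly Krt8. Single markers also differed within the pairs. Mean Cdh1 was 11.4 CPM in 4T1.2 and 38.5 in 4T1, and mean Krt18 was 114 CPM in 66cl4 and 0.977 in 67NR. The defining adhesion genes Cdh1, Epcam and Cldn3 had at most 7 counts in a library of 66cl4 or 67NR, so these markers of epithelial cells were near absent from both lines. Their part in the results below was not tested. The mesenchymal markers summed to between 2532 and 7180 CPM, most of it Vim, and did not move together. Cdh2 (0 to 1 counts per library against 2975 to 5099), Zeb1 (15 to 28 against 2311 to 4026), Pdgfrb (69 to 208 against 6928 to 16201) and Twist1 were lower in 4T1.2 and 4T1 without overlap, and Vim was higher. In Zeb2 and Pdgfra the libraries of the pairs overlapped. Both had their highest line mean in 4T1.2, at 76.2 and 162 CPM, and their lowest at 55.1 (4T1) and 86.5 (67NR). Markers of leucocytes summed to 1.76 to 5.61 CPM, with the macrophage gene Adgre1 and the T cell gene Cd3e at 0 counts in all 8 libraries, and markers of endothelial cells to 0.335 to 3.70 CPM. Most of the leucocyte sum was Cd68, at 72 to 291 counts per library, which was higher in 4T1.2 and 4T1 without overlap. So was Ly6g, at 0 to 5 counts per library.

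Tgfb1 (Entrez 21803, chromosome 7, 25687002 to 25705077, GRCm38) encodes the most widely expressed TGF-β ligand. The 4T1 libraries held 92.9 and 78.2 CPM, the 4T1.2 libraries 71.6 and 60.6, the 67NR libraries 39.3 and 41.9 and the 66cl4 libraries 31.9 and 37.0. Every library of 4T1.2 and 4T1 lay above every library of 66cl4 and 67NR. Pooled, the difference was a log2 fold change of 1.01 (standard error 0.09), or 2.01-fold, with an adjusted p of 3.39e-06. Both lines of the higher pair contributed, since 4T1.2 exceeded 66cl4 by 1.92-fold and 67NR by 1.63-fold, and 4T1 exceeded them by 2.48-fold and 2.10-fold. Between 4T1 and 4T1.2 the difference did not pass (log2 fold change -0.37 for 4T1.2 against 4T1, adjusted p 0.0646), although it did without replicate 2 of 4T1 (adjusted p 0.0208) and by DESeq2 (adjusted p 0.0376). The order of 67NR and 66cl4 was likewise not settled (adjusted p 0.154).

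Tgfb2 (Entrez 21808, chromosome 1, 186622787 to 186709697) encodes the isoform that depends most on betaglycan for receptor binding, and it varied most among the 10 genes. The 4T1 libraries gave 44.6 and 46.3 CPM, the 4T1.2 libraries 40.3 and 36.3, the 66cl4 libraries 10.3 and 9.89 and the 67NR libraries 5.24 and 4.88. The lines took 3 levels, with 4T1 and 4T1.2 on the highest, 66cl4 between and 67NR on the lowest. The pooled log2 fold change was 2.55 (standard error 0.08, 95% interval 2.38 to 2.72), or 5.84-fold, with an adjusted p of 8.49e-10. The single lines were 3.80-fold (4T1.2) and 4.51-fold (4T1) above 66cl4, and 7.58-fold and 9.0-fold above 67NR. The step from 66cl4 to 67NR was 2.00-fold (log2 fold change 1.00, adjusted p 7.82e-05). The difference between 4T1.2 and 4T1 did not pass (log2 fold change -0.25, 95% interval -0.47 to -0.03, adjusted p 0.114).

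Tgfb3 (Entrez 21809, chromosome 12, 86056743 to 86079041) followed another order. The 66cl4 libraries carried 124 and 120.4 CPM, the 4T1.2 libraries 102 and 94.1, the 4T1 libraries 71.8 and 80.0 and the 67NR libraries 30.3 and 27.7. It was highest in 66cl4 and lowest in 67NR, so the lines that were pooled lay on either side of 4T1.2 and 4T1. The pooled log2 fold change of 0.54 (adjusted p 4.73e-05, standard error 0.07) therefore described neither line of the lower pair, and the libraries overlapped. The line 66cl4 exceeded 67NR by 4.21-fold (log2 fold change 2.07, standard error 0.10, adjusted p 4.73e-07). The 4T1.2 and 4T1 lines were 3.39-fold and 2.62-fold above 67NR. The 1.24-fold lower level in 4T1.2 than in 66cl4 (adjusted p 0.0142) did not pass without replicate 2 of 4T1.2 (0.120) or replicate 1 of 66cl4 (0.0628). The 1.30-fold higher level in 4T1.2 than in 4T1 (adjusted p 0.0224) was lost without either replicate of 4T1.2 (0.156 and 0.0570) or replicate 1 of 4T1 (0.0699). Of the 75-base stretches of the Tgfb3 transcripts, 7.34% also occur in other genes' transcripts, mostly in Gm48008, whose exons lie opposite those of Tgfb3. Whether the counting used strand was not stated.

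Inhba (Entrez 16323, chromosome 13, 16004256 to 16031609), the subunit of activin A, had the lowest counts, 52 to 255 per library. The 67NR libraries held 5.84 and 4.13 CPM, the 66cl4 libraries 3.84 and 3.24, the 4T1.2 libraries 2.98 and 2.59 and the 4T1 libraries 0.933 and 1.12. The 4T1 line was lowest, and all libraries of 4T1.2 and 4T1 lay below those of 66cl4 and 67NR. Pooled, the log2 fold change was -1.31 (adjusted p 3.11e-05, standard error 0.16), a 2.48-fold lower level. The 4T1 line differed most, being 3.46-fold below 66cl4 and 4.83-fold below 67NR. The 4T1.2 line was 2.72-fold above 4T1 (log2 fold change 1.45, standard error 0.23, adjusted p 0.00239), and Inhba was the only one of the 10 genes to differ more than 2-fold between these lines. The difference of 4T1.2 from 66cl4 did not pass (log2 fold change -0.35, adjusted p 0.165). Its 1.77-fold lower level than in 67NR (adjusted p 0.00514) was lost without replicate 1 of 67NR (0.0515). The difference between 66cl4 and 67NR did not pass (adjusted p 0.0838), but did without replicate 2 of 67NR (0.0383).

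Per length, the TGF-β ligand genes together reached 72.9 ± 2.99 RPKM for 4T1, 68.7 ± 6.09 for 4T1.2, 54.6 ± 0.954 for 66cl4 and 29.0 ± 0.256 for 67NR (mean ± SD, n = 2). The make-up of this sum differed between lines. Tgfb1 gave 65.1% and 68.5% of it for the 67NR libraries, 59.1% and 52.8% for 4T1, 46.9% and 44.9% for 4T1.2 and 28.2% and 31.9% for 66cl4. Tgfb3 gave 67.7% and 64.3% in 66cl4, and between 28% and 43.2% in each library of the other lines. Tgfb2 was the smallest share everywhere, at 11.7% to 13.8% in the 4T1.2 and 4T1 libraries and 3.53% to 4.03% in those of 66cl4 and 67NR. Thus 66cl4 was the one line with more Tgfb3 than Tgfb1 in both libraries. Inhba stood at 0.672 RPKM in 4T1 and 3.26 RPKM in 67NR, its lowest and highest line means, far below the TGF-β sum.

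**Figure D2:**
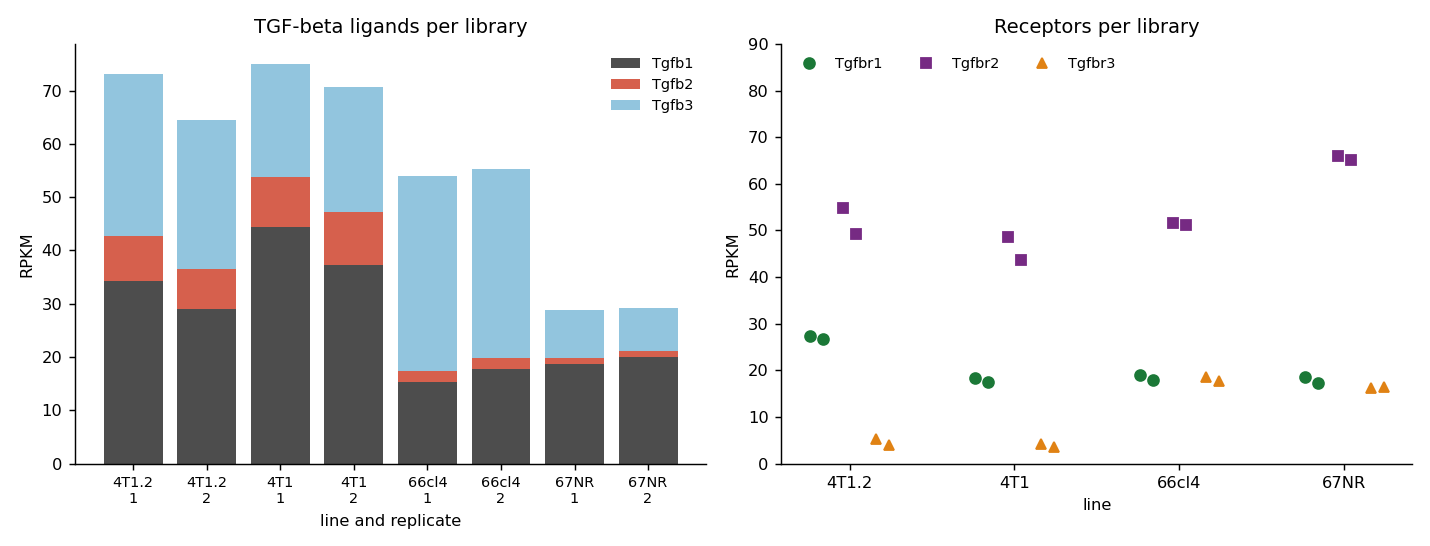
Left, RPKM of Tgfb1, Tgfb2 and Tgfb3 stacked for each library, with the line and replicate on the horizontal axis. Right, RPKM of Tgfbr1, Tgfbr2 and Tgfbr3 in each library by line (both vertical axes from 0). The stack in the 67NR libraries reaches 28.9 and 29.2 RPKM, against 54.0 to 75 RPKM in the others, and Tgfbr3 is the gene of the right panel that separates 4T1.2 and 4T1 from 66cl4 and 67NR.

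Both of these binding protein genes were highest in 66cl4. Ltbp1 (Entrez 268977, chromosome 17, 75005480 to 75392512) encodes a protein that binds the TGF-β propeptide and tethers it to fibrillin and fibronectin. The 66cl4 libraries gave 272 and 258 CPM, the 4T1.2 libraries 215 and 185, the 67NR libraries 183 and 186 and the 4T1 libraries 156 and 145. Its levels stayed within a narrow range in comparison with the ligands, and the pooled log2 fold change was -0.35 (adjusted p 8.82e-04, standard error 0.07) with overlapping libraries. The line 66cl4 exceeded 67NR by 1.43-fold (adjusted p 0.00179) and 4T1 by 1.76-fold (adjusted p 3.92e-05). Smaller differences depended on single libraries. The 1.33-fold higher level in 4T1.2 than in 4T1 (adjusted p 0.0151) was lost without replicate 1 of 4T1.2 (0.136) or replicate 2 of 4T1 (0.0513). The 1.32-fold lower level in 4T1.2 than in 66cl4 (adjusted p 0.00378) was lost without replicate 2 of 4T1.2 (0.0515), and the 1.23-fold lower level in 4T1 than in 67NR (adjusted p 0.0190) without replicate 2 of 4T1 (0.0689) or either replicate of 67NR (0.0708 and 0.0918). The 4T1.2 and 67NR lines, next to each other in the order, did not pass the test (adjusted p 0.317).

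Ltbp2 (Entrez 16997, chromosome 12, 84783212 to 84876558) encodes a relative that is part of microfibrils and, unlike LTBP1, does not bind latent TGF-β. The 66cl4 libraries carried 67.6 and 60.9 CPM, the 4T1 libraries 39.8 and 33.5, the 4T1.2 libraries 38.6 and 33.0 and the 67NR libraries 20.3 and 20.6. As with Tgfb3, 66cl4 was highest and 67NR lowest, with a 3.14-fold difference between them (log2 fold change 1.65, standard error 0.12, adjusted p 6.31e-06). The pooled comparison averaged these out to a log2 fold change of -0.0015 (95% interval -0.19 to 0.19, adjusted p 0.990). Against 67NR, 4T1.2 was 1.75-fold and 4T1 1.79-fold higher, and against 66cl4 they were 1.80-fold and 1.75-fold lower. The 4T1.2 and 4T1 lines did not differ detectably from each other (log2 fold change -0.04, 95% interval -0.30 to 0.23). Of the 75-base stretches of Ltbp2, 8.21% are shared with other transcripts, mostly those of the antisense gene D030025P21Rik.

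Among the receptors, Tgfbr2 (Entrez 21813, chromosome 9, 116087695 to 116175363), the ligand-binding type II receptor, had the highest RPKM of the 10 genes in each line, from a mean of 46.1 in 4T1 to 65.5 in 67NR. It also varied least. The 67NR libraries held 316 and 311 CPM, the 4T1.2 libraries 262 and 236, the 66cl4 libraries 247 and 245 and the 4T1 libraries 232 and 209. The 67NR line was highest, and the other 3 lines did not differ detectably among themselves (adjusted p 0.226 for 4T1.2 against 4T1, 0.866 for 4T1.2 against 66cl4 and 0.150 for 4T1 against 66cl4). The pooled log2 fold change was -0.24 (adjusted p 0.00589, standard error 0.06). The 4T1 line was 1.42-fold below 67NR (adjusted p 7.35e-04). The 1.26-fold lower level in 4T1.2 than in 67NR (adjusted p 0.00861) was lost without replicate 2 of 4T1.2 (0.0745) or replicate 1 of 67NR (0.0532). The 1.28-fold lower level in 66cl4 than in 67NR (adjusted p 0.0111) was lost without either replicate of 67NR (0.0691 and 0.0599).

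Tgfbr1 (Entrez 21812, chromosome 4, 47353222 to 47414926), the kinase that phosphorylates SMAD2 and SMAD3, was higher in 4T1.2 than in each of the other lines. The 4T1.2 libraries gave 156 and 152 CPM, the 66cl4 libraries 108 and 102, the 67NR libraries 106 and 98.5 and the 4T1 libraries 104 and 98.9. The other 3 lines lay together, with log2 fold changes between them of -0.05 to 0.04 that did not pass the test. The 4T1.2 line was 1.51-fold above 4T1 (log2 fold change 0.60, standard error 0.08, adjusted p 0.00105), 1.46-fold above 66cl4 (adjusted p 2.47e-04) and 1.5-fold above 67NR (adjusted p 1.51e-04). For Tgfbr1 the pooled log2 fold change of 0.27 (adjusted p 0.00201) came from 4T1.2, since 4T1 did not pass against either line of the lower pair. In RPKM, Tgfbr2 stood at 2.00 and 1.84 times Tgfbr1 in 4T1.2, against 2.50 to 3.74 times in the libraries of the other lines.

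Tgfbr3 (Entrez 21814, chromosome 5, 107106567 to 107289629), the co-receptor betaglycan, separated the line pairs. The 66cl4 libraries carried 112 and 107 CPM, the 67NR libraries 97.5 and 99.0, the 4T1.2 libraries 31.6 and 24.5 and the 4T1 libraries 25.5 and 21.1. The libraries did not overlap between the pairs, and within each pair the lines did not differ detectably (log2 fold change 0.26, 95% interval -0.04 to 0.56, for 4T1.2 against 4T1, and 0.16, -0.13 to 0.45, for 66cl4 against 67NR). Pooled over lines, the log2 fold change was -2.02 (standard error 0.10, 95% interval -2.24 to -1.81), a 4.06-fold lower level in 4T1.2 and 4T1, with an adjusted p of 2.84e-08. Each single comparison across the pairs lay between 3.50-fold and 4.70-fold. In RPKM, Tgfbr2 exceeded Tgfbr3 by 10.5 to 12.5 times in the 4T1.2 and 4T1 libraries and by 2.78 to 4.09 times in those of 66cl4 and 67NR. The lines with the least Tgfbr3 were the lines with the most Tgfb2, the ligand that betaglycan presents. Transcripts of Tgfbr3 share 3.48% of their 75-base stretches with other transcripts, mostly those of Gm43422, which overlaps it on the same strand.

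Smad7 (Entrez 17131, chromosome 18, 75367365 to 75395935), the inhibitory Smad that the pathway itself induces, was high in 66cl4 alone. The 66cl4 libraries held 136 and 161 CPM, the 67NR libraries 36.0 and 37.1, the 4T1.2 libraries 38.5 and 29.2 and the 4T1 libraries 30.7 and 24.2. The highest library of any other line stood at 38.5 CPM. The line 66cl4 exceeded 67NR by 4.06-fold (log2 fold change 2.02, standard error 0.16, adjusted p 9.57e-06), 4T1.2 by 4.39-fold and 4T1 by 5.40-fold. The pooled log2 fold change of -1.27 (adjusted p 3.12e-06, standard error 0.11) thus rested on 66cl4, and the libraries overlapped. Against 67NR, 4T1.2 did not pass (log2 fold change -0.11, 95% interval -0.46 to 0.24). The 1.33-fold lower level in 4T1 than in 67NR (log2 fold change -0.41, adjusted p 0.0400) was lost without replicate 2 of 4T1 (log2 fold change -0.26, adjusted p 0.176) and without either replicate of 67NR (0.106 and 0.145). In RPKM, Smad7 was at 33.4 ± 3.97 in 66cl4 (SD, n = 2), next to Tgfb3 at 36.1 ± 0.705 in the same line.

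The comparisons of single lines share libraries with one another. For 4T1.2 against 4T1, 4 genes were higher, Tgfb3, Inhba, Ltbp1 and Tgfbr1, against 9.38% of all genes tested. In the same comparison 0 were lower by edgeR, against 9.93% of all genes, with 2 at an unadjusted p under 0.05 (Tgfb1 and Tgfb2), 1 by DESeq2 (Tgfb1) and 0 by limma-voom. Only Inhba passed with more than 2-fold, against 6.46% of all genes. The number that passed in either direction fell from 4 to 2 without replicate 1 of 4T1.2, and to 2 when the 4 libraries of these lines were fitted alone (adjusted p 0.0750 for Tgfb3 and 0.0625 for Ltbp1). Tgfbr1 and Inhba passed in each of these fits.

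For 66cl4 against 67NR, 5 genes were higher, Tgfb2, Tgfb3, Ltbp1, Ltbp2 and Smad7, against 22.3% of all genes tested, and Tgfbr2 was lower, against 22.4%. Of these, Tgfb3, Ltbp2 and Smad7 differed by more than 2-fold, against 14.7% of all genes. The median log2 fold change in this comparison was 0.34 over the 10 genes and 0.00 over all genes. The line 66cl4 thus held more of 2 ligand transcripts, Ltbp1, Ltbp2 and the inhibitor than 67NR.

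For 4T1.2 against 66cl4, 3 genes were higher (34.3% of all genes) and 5 lower (34.5%), and 3 differed more than 2-fold (33.2%). For 4T1.2 against 67NR, 5 were higher (33.7%) and 3 lower (34.1%), and 3 differed more than 2-fold (32.2%). For 4T1 against 66cl4, 2 were higher (34.9%) and 6 lower (35.2%), and 5 differed more than 2-fold (34.4%). For 4T1 against 67NR, 4 were higher (33.8%) and 5 lower (34.4%), and 5 differed more than 2-fold (32.1%). Tgfb1 and Tgfb2 were higher and Tgfbr3 was lower in each of these comparisons. Tgfb3 and Ltbp2 changed direction with the line compared, being higher than in 67NR and lower than in 66cl4.

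**Figure D3:**
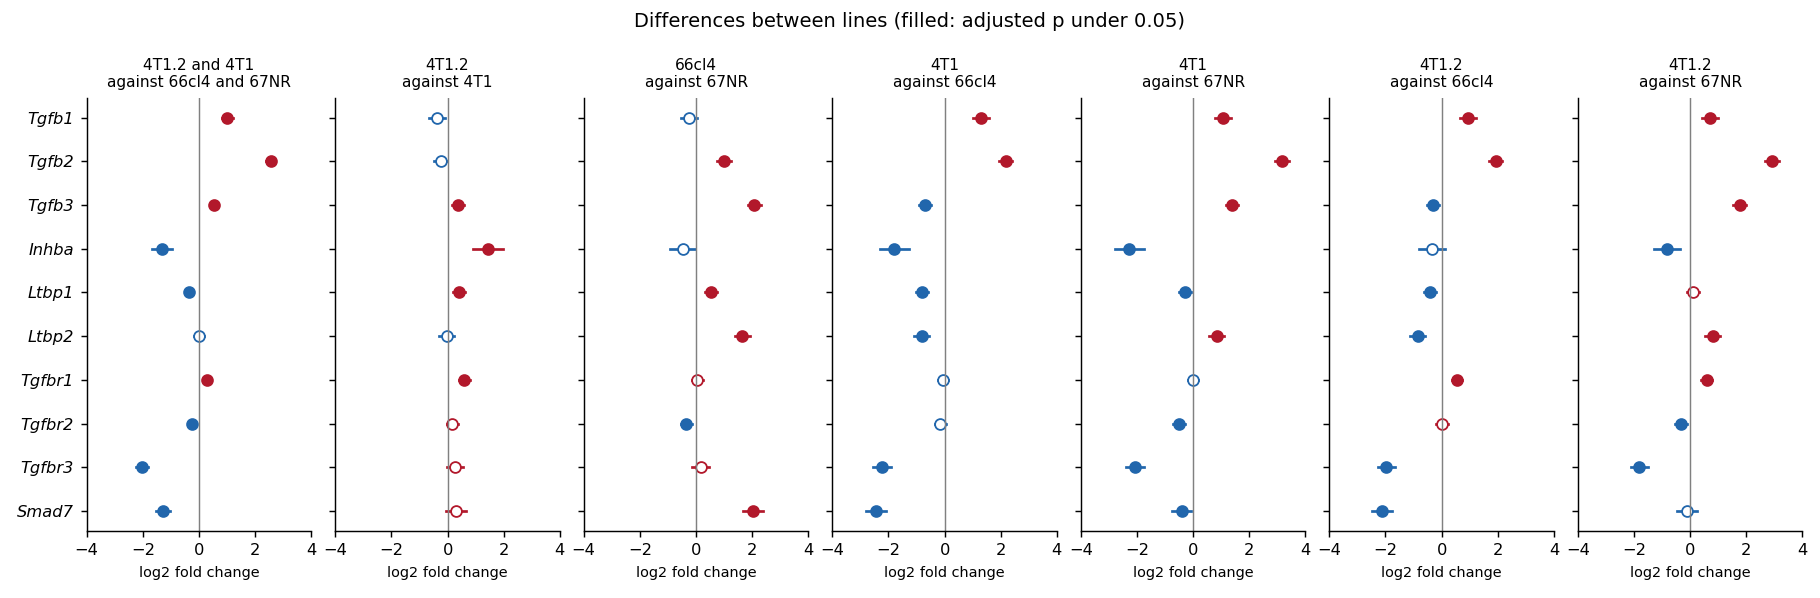
Log2 fold change (horizontal axis) of the 10 genes in the pooled comparison and in each comparison of 2 lines, with 95% intervals. Filled points have an adjusted p under 0.05, and red and blue mark higher and lower levels in the line named first. Tgfb2 lies at 2.55 and Tgfbr3 at -2.02 in the pooled panel, whereas Tgfb3 and Ltbp2 are at 2.07 and 1.65 for 66cl4 against 67NR.

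Other genes of the pathway were taken from 5 lists, which are read here in the pooled comparison. There 10687 of the 13922 genes tested passed, 38.1% of all genes as higher and 38.6% as lower. The median log2 fold change over all genes was -0.01. Among the other ligands and inhibitory ligands, 3 of 7 were expressed enough to be tested, and all 3 passed in the pooled comparison, 2 higher and 1 lower (median log2 fold change 0.50). The 2 inhibin and activin subunits were almost exclusive to one pair each. Inha, the inhibin α subunit, had 0 counts in the 4T1.2 and 4T1 libraries and 40 to 152 in the others, at least 177-fold higher in 66cl4 and 67NR against a floor of 3 counts over the 4 libraries. Inhbb, the activin B subunit, had 76 to 131 counts per library in 4T1.2 and 4T1 and 1 count over the 4 libraries of 66cl4 and 67NR, a ratio of 357 (95% counting interval 63.6 to 14114). Such bounds and intervals cover counting error only. With Inhba lower in 4T1.2 and 4T1 when pooled, the 2 activin subunit genes differed in opposite directions in this comparison. For Inhba, 4T1.2 alone did not pass against 66cl4 (log2 fold change -0.35, edgeR adjusted p 0.165). Mstn, Nodal, Lefty1 and Lefty2 were not tested, with 0 to 11 counts per library.

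Of the other receptors and co-receptors, 4 of 6 tested passed, 1 higher (38.1% of all genes) and 3 lower (38.6%), with a median of -0.36. Bambi, a pseudoreceptor that blocks type I receptors, had 1 count over the 4T1.2 and 4T1 libraries and 312 to 596 counts per library in 66cl4 and 67NR, a ratio of 1901 (95% counting interval 341 to 75116). Acvrl1, the type I receptor ALK1, was 36.6-fold lower in 4T1.2 and 4T1 (log2 fold change -5.19, standard error 0.15, adjusted p 7.16e-10). Eng, or endoglin, a co-receptor related to betaglycan, was 20.1-fold higher (log2 fold change 4.33, standard error 0.10, adjusted p 1.93e-10), with 147 and 123 CPM for the 4T1.2 libraries, 104 and 87.9 for 4T1, 8.02 and 8.04 for 66cl4 and 3.55 and 4.33 for 67NR. The 2 accessory receptors of TGF-β were therefore opposite, with Eng high where Tgfbr3 was low. Eng and Acvrl1 are both best known in endothelial cells, whose markers summed to 0.829 to 3.70 CPM in the 4T1.2 and 4T1 libraries and 0.335 to 0.442 CPM in the others, and their part in this was not tested. Acvr1c and Tdgf1 were not tested, with 0 to 2 counts per library.

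Of 10 latency, activation and binding genes tested, 8 passed, 2 higher (38.1% of all genes) and 6 lower (38.6%), with a median of -0.64. Fst, or follistatin, which neutralises activin, was 15.5-fold lower in 4T1.2 and 4T1 (log2 fold change -3.95, standard error 0.09, adjusted p 1.57e-10). The 67NR libraries gave 110.4 and 112 CPM, the 66cl4 libraries 43.0 and 53.7, the 4T1.2 libraries 5.20 and 5.52 and the 4T1 libraries 4.31 and 4.08. Inhba and its antagonist were thus both lowest in 4T1. For Fst the difference between 4T1.2 and 4T1 did not pass (edgeR adjusted p 0.0970). The RPKM of Fst was 1.14 to 3.02 times that of Inhba in the 4T1.2 and 4T1 libraries and 7.31 to 17.8 times in the others. Thbs1, or thrombospondin 1, an activator of latent TGF-β, was 5.79-fold lower in 4T1.2 and 4T1 (log2 fold change -2.53, adjusted p 2.61e-09) and highest in 66cl4, at 2103 and 1965 CPM. Itgb8, part of an integrin that activates latent TGF-β, had 32 counts over the 66cl4 and 67NR libraries and 0 in the others, at least 12.5-fold higher in the former. Lrrc32, Nrros and Itgb6 were not tested, with 0 to 16 counts per library.

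Of the 14 Smads and regulators, all of them tested, 12 passed, 6 higher (38.1% of all genes) and 6 lower (38.6%), with a median of 0.01. Smad6, the other inhibitory Smad, was also highest in 66cl4. The 66cl4 libraries carried 160.2 and 161 CPM, the 67NR libraries 29.8 and 32.3, the 4T1.2 libraries 17.5 and 18.8 and the 4T1 libraries 8.65 and 9.06, with a pooled log2 fold change of -2.48 (adjusted p 4.13e-10, standard error 0.07). Tgif2, a transcriptional repressor acting on Smad targets, was 14.7-fold higher in 4T1.2 and 4T1 (log2 fold change 3.88, adjusted p 6.05e-10), and Skil, a repressor that binds Smads, 1.98-fold higher (log2 fold change 0.99, adjusted p 3.08e-07). Ski and Tgif1, of the same list, went the other way without overlap. Ski was 1.90-fold lower (log2 fold change -0.93, adjusted p 1.96e-06) and Tgif1 1.48-fold lower (log2 fold change -0.57, adjusted p 1.56e-05).

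Of the 14 tested genes known to respond to TGF-β, 13 passed, 6 higher (38.1% of all genes) and 7 lower (38.6%), with a median of -0.40. The list did not move one way. Snai1 and Snai2, related transcription factors that repress E-cadherin, differed in opposite directions, with Snai1 higher in 4T1.2 and 4T1 (562 to 1250 counts per library against 3 counts over the 4 other libraries, a ratio of 1084, 95% counting interval 371 to 5260) and Snai2 higher in 66cl4 and 67NR (2689 to 4808 counts per library against 5 counts in all, a ratio of 3737, interval 1601 to 11510). Zeb1 and Twist1, which also repress E-cadherin and were counted among the mesenchymal markers, were lower in 4T1.2 and 4T1, as given above. Zeb2, from the same markers, overlapped between the pairs. Pthlh, the parathyroid hormone-related protein known for its role in bone metastasis, was higher in 4T1.2 and 4T1, with 62 and 68 counts in 4T1.2, 219 and 200 in 4T1 and 2 counts over the other 4 libraries, a ratio of 234 (interval 64.5 to 1938). Within that pair, Pthlh was 3.43-fold lower in 4T1.2 than in 4T1 (edgeR adjusted p 0.00141). Cdkn2b had 0 counts in all 8 libraries and was not tested.

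**Figure D4:**
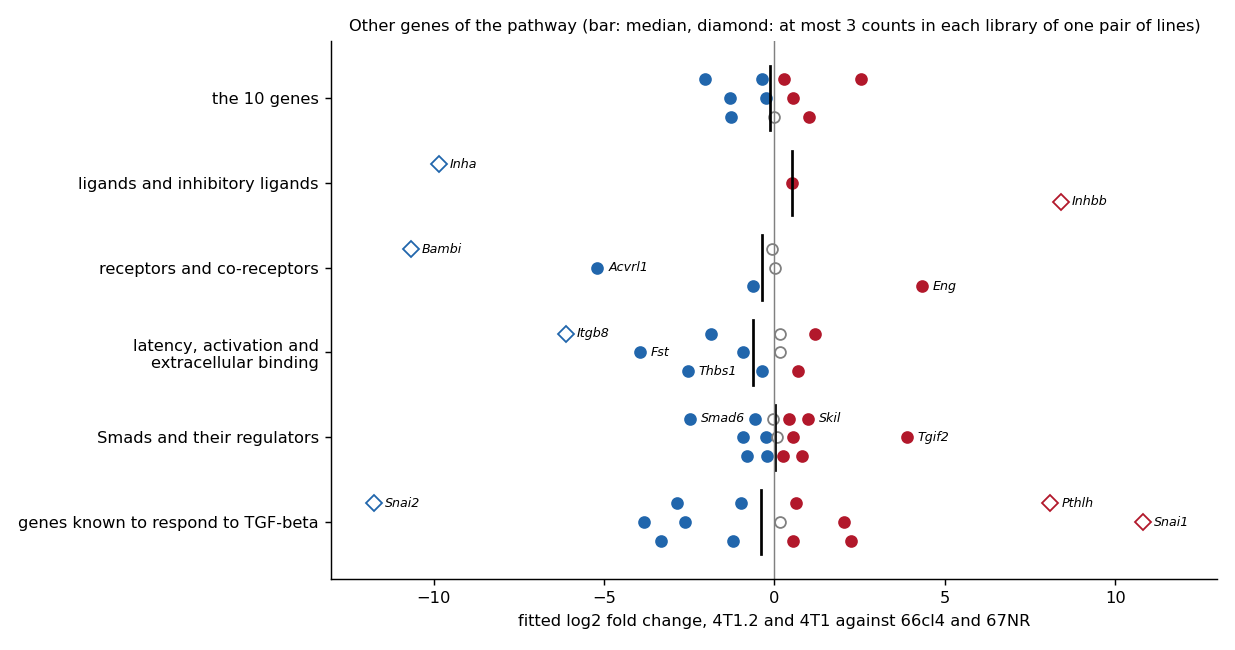
Fitted log2 fold change of 4T1.2 and 4T1 against 66cl4 and 67NR (horizontal axis) for the 10 genes and for the tested genes of 5 other lists of the pathway (rows, points shifted vertically for legibility). Red and blue points passed the test as higher and lower, open grey points did not, open diamonds had at most 3 counts in each library of one pair, where the fitted value is no measure of size, and the black bar is the median. Medians lie between -0.64 and 0.50, with single genes far to either side in most lists.

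For the 3 genes whose line means ranged most, the genes with the nearest pattern over the 8 libraries were found by the distance between centred log2 CPM values. Nearest to Tgfb2 (range of line means 3.16 on the log2 scale) were, among others, Trib1 (distance 0.42) and Selenbp2 (0.57). Trib1, for example, had a line mean of 173 CPM for 4T1, 160.0 for 4T1.2, 38.7 for 66cl4 and 17.4 for 67NR. Nearest to Smad7 (range 2.44) were Pm20d2 (0.41), Arl4d (0.47) and Itga2b (0.50), each high in 66cl4. Nearest to Tgfbr3 (range 2.24) were Fbln2 (0.20), Fut7 (0.20) and Mocs1 (0.34). Fbln2, the matrix gene fibulin 2, had line means of 243 CPM for 66cl4, 198 for 67NR, 57.6 for 4T1.2 and 50.9 for 4T1. None of these genes is in the lists of the pathway used here, and with 4 lines many genes can share an order by their levels alone.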

How the data were processed

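Total RNA of 4 mouse mammary tumour lines was sequenced from TruSeq RNA v2 libraries, with 2 biological replicates per line and no batch labels. Per the paper's methods and the labels, the authors aligned reads to mm10 with Rsubread, counted them per Entrez gene with featureCounts and deposited raw counts with each gene's length. Whether counting used strand is not given in the sources used here. The deposited table equalled the per-sample files in 8 of 8 columns.

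Genes past filterByExpr (15269 of 27179) were kept unless they had no entry in the gene table, were predicted or were ribosomal, which left 13922. These were tested with edgeR 4.0.16 (quasi-likelihood F-test, legacy fit, TMM, a mean per line, 4 residual degrees of freedom, limma 3.58.1, R 4.3.3), Benjamini-Hochberg adjustment and a threshold of 0.05. The common biological coefficient of variation was 9.73%. Standard errors were derived from the F statistic. CPM and RPKM used TMM effective library sizes and the deposited lengths. Alternatives included DESeq2 1.42.0, limma-voom, other filters and scalings, a replicate block and leaving out each library.

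All 10 chosen genes are named, with up to 3 genes per list: those with the largest change among genes that passed and whose libraries did not overlap, and genes that could not be tested. Ski and Tgif1, and the genes under Other observations, were named after their values were seen. For the 3 chosen genes with the widest range, the 3 nearest genes by distance are named, except for a gene that is not reported here. Members and lists were chosen with earlier results of these data known. Motifs and shared 75-base stretches were counted with Python 3.11.15, and figures drawn with matplotlib 3.10.9.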

Additional observations from a re-analysis of the deposited data

How the results depend on the processing

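Of 1180 values of the 10 genes under alternatives, 1138 kept their direction and their side of the threshold, 24 changed side and 18 changed direction. The changes of direction were all in differences that passed neither in the main fit nor under the alternative. The pooled log2 fold change of Ltbp2 (main value -0.0015) was 0.0072 with DESeq2's size factors or with DESeq2, 0.0038 without a filter on low counts, 0.0166 without removal by annotation, and ranged from -0.0663 to 0.0602 when single libraries were left out. For Tgfbr1, 4T1 against 67NR was 8.52e-04 with DESeq2's size factors and 0.0013 with DESeq2. With single libraries left out, this difference ranged from -0.0566 to 0.0431, Tgfbr1 in 66cl4 against 67NR from -0.0058 to 0.0939, Ltbp2 in 4T1.2 against 4T1 from -0.15 to 0.0931, Tgfbr2 in 4T1.2 against 66cl4 from -0.0440 to 0.10, and Ltbp1 and Smad7 in 4T1.2 against 67NR from -0.0050 to 0.21 and from -0.33 to 0.0641. In the pooled comparison and the test of any difference among lines, no gene changed side under any alternative run. Of 201 counts of genes passing, 199 stayed within 1.5 times the main count. The exceptions were the number of the 10 genes passing for 4T1.2 against 4T1 (main value 4), which was 2 when only the libraries of the lines compared were fitted and ranged from 2 to 4 when single libraries were left out. A fit that leaves a line with 1 library assumes that it varies like the others. Replicate numbers are shared between lines only as numbers (correlation of replicate differences -0.12 to 0.27), and a fit with them as a replicate block gave 9 of 10 genes passing in the pooled comparison, as without the block, and the same number in each other comparison.

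Depth limited Inhba most, with 52 to 255 counts per library. With 2 libraries per line, the calls that were lost when 1 library was left out were differences of 1.23-fold to 1.77-fold.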

Other observations

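The genes in this paragraph were singled out from the fixed lists after their values were seen. The other latent TGF-β binding protein genes, Ltbp3 and Ltbp4, were both higher in 4T1.2 and 4T1 than in 66cl4 and 67NR (log2 fold changes 0.68 and 1.18, edgeR adjusted p 3.58e-05 and 1.39e-05), whereas Ltbp1 was lower. For Ltbp3 the pooled value came from 67NR, whose libraries held 169 and 183 CPM against 361 to 502 CPM in those of the other lines, and the levels of 4T1.2 and 4T1 did not pass against 66cl4 (adjusted p 0.115 and 0.942). For Ltbp4, the 4T1.2 libraries held 205 and 145 CPM, the 4T1 libraries 148 and 109, the 66cl4 libraries 72.2 and 68.9 and the 67NR libraries 57.5 and 65.9. The activin type II receptor genes did not pass in the pooled comparison, with log2 fold changes of 0.02 (standard error 0.08) for Acvr2a and -0.08 (standard error 0.10) for Acvr2b, although Acvr2b was 1.49-fold higher in 66cl4 than in 67NR (adjusted p 0.0109) and 1.36-fold lower in 4T1 than in 66cl4 (adjusted p 0.0198). Smad4, the partner shared by the Smads of the pathway, stayed between 140.0 and 154 CPM in all 8 libraries, and Smad3 was highest in 66cl4, at 397 and 425 CPM.

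Ltbp2 and Tgfb3, both highest in 66cl4 and lowest in 67NR, lie 1.18 Mb apart on chromosome 12. For 66cl4 against 67NR, the tested genes within 5 Mb had a median log2 fold change of -0.02 around Tgfb3 (81 genes) and of -0.02 around Ltbp2 (91 genes), against 2.07 and 1.65 for the genes themselves. Around Tgfbr3, 71 tested genes had a median of -0.40 in the pooled comparison, against -2.02 for Tgfbr3.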
